A study of Mus musculus with 6 samples.

Results

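Of 32 genes that make, sense, move, store and export cholesterol, 3 fell and 0 rose when mouse bone marrow-derived macrophages were differentiated toward osteoclasts with Visomitin. Lower genes were 5.03% of all genes tested, and leaving out 1 library brought the count of members that fell to between 0 and 2. The 3 were Insig2 and Insig1, the endoplasmic reticulum anchors that hold SREBP2 back, and Nr1h3, which encodes the sterol receptor LXRα. The 18 synthesis enzyme genes among the members, which are not the whole pathway, the efflux transporters Abca1 and Abcg1 and the remaining members did not pass the test. The genes were chosen by symbol from the pathway, with earlier results of these data known. All 32 were found among 57180 gene identifiers and passed the filter on low values (1 TPM or more in 3 or more libraries). The study sequenced 6 libraries of RNA, control 1 to 3 and Visomitin 1 to 3, each from wild-type primary macrophages grown from bone marrow. Both groups spent 5 days in osteoclast-inducing culture, the first without and the second with Visomitin, also known as SkQ1, a plastoquinone antioxidant that a cation carries into mitochondria. The sources used here do not give its dose, the inducing factors or whether the libraries came from separate mice or cultures, so p-values reflect library-to-library spread alone, and that spread may be technical. TPM, the unit of expression, scales reads by gene length and to the same total in each library, so that it carries neither depth nor a counting interval.

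Cells make cholesterol from acetyl-CoA through the mevalonate pathway, whose isoprenoid intermediates also anchor small GTPases to membranes, and through squalene and a chain of sterol reactions. When sterols are scarce, SCAP escorts SREBP2 from the endoplasmic reticulum to the Golgi, where it is cut to release a factor that switches on the synthesis and uptake genes; INSIG proteins retain SCAP when sterols are plentiful. Oxysterols and late sterol intermediates bind the LXR receptors, which switch on the efflux pumps ABCA1 and ABCG1, apolipoprotein E and the ubiquitin ligase MYLIP. In osteoclasts the pathway is best known through farnesyl diphosphate synthase, the target of the nitrogen-containing bisphosphonates used against bone loss, and through the dependence of these cells on cholesterol for fusion and survival.

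Promoter windows, from 250 bases before to 50 bases after the annotated start, were in the RefSeq table (GRCm38.p6) for 26 members. They are a description of sequence and were not related to binding data. The letters TCACNCCAC, a core of the sterol regulatory element, were sought on both strands and were in 1 member, Hmgcs1, starting at position -137 (the start site is position 1, and the base before it -1). Among all 32851 windows 1.24% held them, and a longer form of the element, which overlaps this core, was in no member window and in 0.0913% of all windows. The NF-Y letters CCAAT were in 14 of 15 synthesis genes with a window, Acat2 being the gene without them. They were in 41.1% of all 27025 genes with a window, whether or not expressed here. CCAAT was also in 5 of 6 regulator and transport genes with a window, and on the LXR side in 1 of 5, Mylip. The Sp1 letters GGGCGG were likewise in 14 of 15 synthesis genes, beside 38.2% of all genes with a window. They were in 6 of 6 regulator and transport genes and in 2 of 5 on the LXR side. The LXR element DR4, a direct repeat of a half-site with a spacer, was in no member window and in 0.0152% of all windows. None of these searches says anything about binding of a factor. The windows printed are Hmgcs1, for the sterol regulatory letters, Mvk, which had the most CCAAT matches (5), and Insig1, Insig2 (a window with CCAAT and one without) and Nr1h3, the members that fell. Capitals mark TCACNCCAC and CCAAT on either strand, the latter read as ATTGG on the opposite strand.
Hmgcs1, chr13:119690101-119690400, plus strand: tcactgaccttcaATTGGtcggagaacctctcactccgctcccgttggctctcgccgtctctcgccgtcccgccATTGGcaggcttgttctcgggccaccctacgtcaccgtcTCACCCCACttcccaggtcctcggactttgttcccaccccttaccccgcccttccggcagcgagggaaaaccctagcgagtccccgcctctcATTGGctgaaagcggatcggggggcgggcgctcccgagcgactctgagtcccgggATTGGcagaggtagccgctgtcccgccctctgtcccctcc
Mvk, chr5:114444019-114444318, plus strand: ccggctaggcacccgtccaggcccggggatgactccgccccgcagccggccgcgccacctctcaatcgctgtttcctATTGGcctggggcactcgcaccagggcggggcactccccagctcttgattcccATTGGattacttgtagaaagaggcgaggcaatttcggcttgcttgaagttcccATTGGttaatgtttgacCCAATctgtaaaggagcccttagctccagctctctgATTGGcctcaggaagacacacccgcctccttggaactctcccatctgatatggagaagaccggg
Insig1, chr5:28071162-28071461, plus strand: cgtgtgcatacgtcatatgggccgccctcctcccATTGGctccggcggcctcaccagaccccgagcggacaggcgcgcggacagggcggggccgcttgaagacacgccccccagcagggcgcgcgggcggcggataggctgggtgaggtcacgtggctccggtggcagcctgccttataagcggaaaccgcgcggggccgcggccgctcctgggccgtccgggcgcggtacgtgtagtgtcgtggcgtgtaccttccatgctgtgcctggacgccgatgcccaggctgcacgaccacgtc
Insig2, chr1:121332540-121332839, minus strand: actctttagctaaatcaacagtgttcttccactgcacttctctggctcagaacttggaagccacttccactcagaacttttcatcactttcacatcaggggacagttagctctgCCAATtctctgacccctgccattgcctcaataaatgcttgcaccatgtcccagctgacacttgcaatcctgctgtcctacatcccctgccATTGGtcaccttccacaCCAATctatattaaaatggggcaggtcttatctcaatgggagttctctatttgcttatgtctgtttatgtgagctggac
Insig2, chr1:121327629-121327928, minus strand: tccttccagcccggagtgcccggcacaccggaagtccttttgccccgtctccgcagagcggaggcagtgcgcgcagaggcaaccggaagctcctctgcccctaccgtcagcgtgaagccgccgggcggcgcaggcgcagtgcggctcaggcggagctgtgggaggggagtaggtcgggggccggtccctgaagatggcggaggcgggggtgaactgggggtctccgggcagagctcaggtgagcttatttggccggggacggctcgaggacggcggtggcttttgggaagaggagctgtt
Nr1h3, chr2:91194986-91195285, minus strand: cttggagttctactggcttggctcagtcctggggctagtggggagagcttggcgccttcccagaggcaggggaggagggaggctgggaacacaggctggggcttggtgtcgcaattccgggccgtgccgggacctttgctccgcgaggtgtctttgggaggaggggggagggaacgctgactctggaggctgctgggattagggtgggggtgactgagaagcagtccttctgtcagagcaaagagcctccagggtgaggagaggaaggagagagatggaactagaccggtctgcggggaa
Hmgcs1 thus held CCAAT 4 times and Insig1 once, at position -216, while both Nr1h3 windows held none.

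Across the whole table, the test (limma on log2(TPM + 1), Benjamini-Hochberg over all genes, threshold 0.05) called 835 of 11753 genes, which is 7.10%. Higher genes made up 2.08% of those tested and lower genes 5.03%. With median-ratio scaling the split was 482 higher and 692 lower, and with quantile normalization 559 and 651, against 244 and 591 as reported here. Every fold change below is Visomitin minus control on log2(TPM + 1), a scale that shrinks changes of weakly expressed genes, and each adjusted p is from limma. Of the 32 members 0 rose and 3 fell, or 9.38% lower against the 5.03% of all genes. Members that fell numbered 0 of 32 when control 1 or control 2 was left out, 1 without control 3 or Visomitin 2, and 2 without Visomitin 1 or Visomitin 3. Calls over the whole table moved as well: dropping a control library left 299 (control 1), 443 (control 2) or 362 (control 3), and dropping Visomitin 2 left 359. Without Visomitin 3 there were 703, while without Visomitin 1 the count rose to 983. The median log2 fold change of the members was -0.17, beside -0.03 over all genes tested, and 22 members lay below 0 (68.8%, beside 55.7% of all genes). The all-gene values depended on Visomitin 1: without it their median was 0.013 and 48.0% lay below 0. Group ranges did not overlap for 16 members, 6 higher and 10 lower with Visomitin, where 30.4% of all genes had ranges that did not overlap. Unadjusted p-values under 0.05 numbered 14 among the 32 members and 2862 among all 11753 genes.

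**Figure D1:**
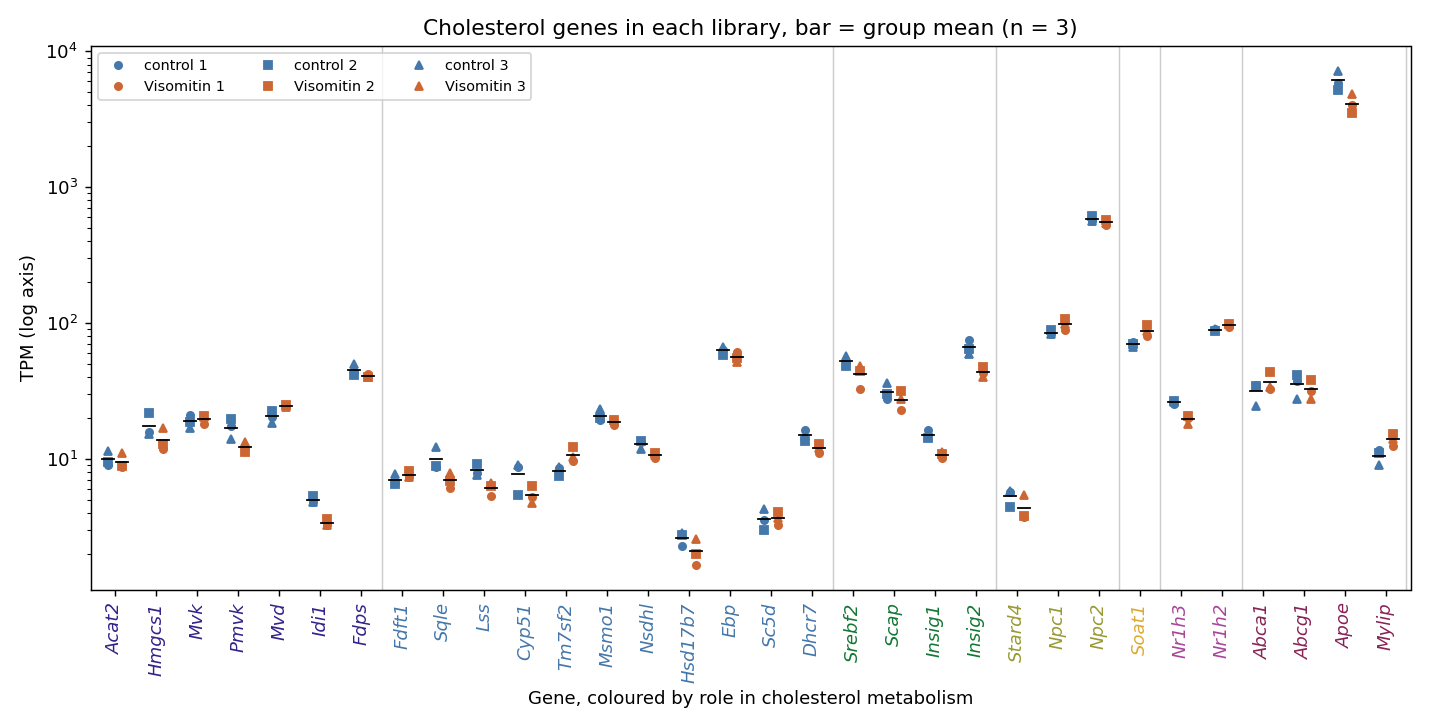
TPM on a log axis for each of the 32 genes in the 3 control libraries (blue) and the 3 Visomitin libraries (orange), with black bars at the group means and gene names coloured by role. Apoe lies highest, near 6104 TPM in control, and Hsd17b7 lowest, and for most genes the points of the groups lie close together or mixed.

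The cells carried the marks of both osteoclasts and macrophages. All 11 markers of the mature osteoclast fell with Visomitin, and their summed level was 13219.5 to 14239.8 TPM in control and 3483 to 4095 TPM with Visomitin. Ctsk, the collagen-degrading cathepsin K, had a log2 fold change of -2.22, Ckb, the brain-type creatine kinase, -1.92, and Dcstamp, needed for precursor fusion, -2.94. Of 9 macrophage markers 3 rose, the mannose receptor gene Mrc1 (0.61), the efferocytosis receptor gene Mertk (0.57) and the chemokine receptor gene Cx3cr1 (0.78), and 0 fell. Over all genes tested 2.08% rose and 5.03% fell. Cd68, a lysosomal glycoprotein gene, had a value of the opposite sign (-0.20, adjusted p = 0.16) with no overlap between groups. The summed level was 36431 to 40745 TPM in control and 42115 to 47357 TPM with Visomitin, most of it from the lysozyme gene Lyz2, at 34413 and 39911 TPM on average, which did not pass (0.21, adjusted p = 0.18). The Mrc1 call was lost without Visomitin 2 (adjusted p = 0.053), and the Mertk and Cx3cr1 calls without control 1, control 2, control 3 or Visomitin 2 (up to 0.096 and 0.083). The 7 stromal markers summed to 111 to 329 TPM in control and 76.6 to 164 TPM with Visomitin, with overlapping ranges and Lum at or near 0. None of the 6 tested passed. All 6 had a value below 0, beside 55.7% of all genes, though that of Cxcl12 was only -0.0042 (adjusted p = 0.998). Their median was -0.70, beside -0.03 over all genes. The collagen gene Col1a1 had -0.94 (adjusted p = 0.20), and Dcn, at 2.07 to 3.18 TPM in control and 1.23 to 1.72 TPM with Visomitin, was the one without overlap (-0.49, adjusted p = 0.15). Of 6 neutrophil markers S100a9, Mpo, Elane and Ltf were listed at 0 throughout and Camp reached at most 0.15 TPM, while S100a8 was at 11.4 to 19.5 TPM in control and 8.82 to 15.3 TPM with Visomitin (-0.42, adjusted p = 0.32), with overlapping groups. In bulk RNA fewer osteoclasts and less RNA per osteoclast cannot be told apart, and the part of these shifts in the results below was not tested.

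The 7 enzymes of the mevalonate pathway measured were expressed at a low to moderate level. Of these 0 of 7 passed the test, beside 7.10% of all genes. Idi1, the isomerase that activates the isoprenoid unit, was at 4.81, 5.30 and 4.79 TPM in control 1 to 3 and at 3.25, 3.61 and 3.25 TPM in Visomitin 1 to 3. Every Visomitin library thus lay below every control, with a log2 fold change of -0.45 (SE 0.13, adjusted p = 0.077). Pmvk, phosphomevalonate kinase, was at 17.4, 19.6 and 14.1 TPM in control and 12.1, 11.3 and 13.4 TPM with Visomitin (-0.43, SE 0.14, adjusted p = 0.10). These ranges did not overlap either, though the lowest control lay close to the highest Visomitin library. Mvd, the decarboxylase whose product Idi1 uses, had the opposite order, at 20.5, 22.7 and 18.4 TPM in control and 24.5, 25.1 and 24.3 TPM with Visomitin (0.26, SE 0.11, adjusted p = 0.18). All 3 Visomitin libraries exceeded all 3 controls for Mvd.

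Hmgcs1, the synthase that builds the precursor of mevalonate and a standard readout of SREBP2, was at 15.8, 21.7 and 15.2 TPM in control and 11.9, 12.8 and 16.8 TPM with Visomitin. The groups overlapped through Visomitin 3, and the log2 fold change was -0.32 with a 95% interval of -0.72 to 0.07 (adjusted p = 0.30). Fdps, farnesyl diphosphate synthase, was the most abundant of the 7, at 43.98, 41.8 and 49.8 TPM in control and 42.5, 39.8 and 40.0 TPM with Visomitin. Its 95% interval was -0.36 to 0.08, which overlapped that of Idi1 (-0.75 to -0.15). The difference between these genes was not tested. Fdps values are uncertain, because 24.6% of its 31-base words also occur in transcripts of the annotated gene Gm43738. No value was found for Gm43738, so the size of any effect on Fdps is not known. Acat2, the thiolase at the head of the pathway, shares 43.7% of its words with Acat3, which reached at most 0.16 TPM. The log2 fold change was -0.07 for Acat2 (adjusted p = 0.81) and 0.06 for Mvk, mevalonate kinase (adjusted p = 0.80).

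From squalene to cholesterol, 0 of 11 enzyme genes passed, beside 7.10% of all genes. Of the 11, 8 had a value below 0 (72.7%, beside 55.7% of all genes). Their median log2 fold change was -0.25, beside -0.03 over all genes, of which 18.4% lay lower without overlap. Sqle, squalene epoxidase and a rate-limiting step, was at 8.73, 8.87 and 12.3 TPM in control and 6.13, 6.84 and 7.89 TPM with Visomitin (-0.45, SE 0.16, adjusted p = 0.13). Lss, lanosterol synthase, which closes the sterol rings, was at 7.95, 9.20 and 7.62 TPM in control and 5.38, 6.32 and 6.66 TPM with Visomitin (-0.38, SE 0.13, adjusted p = 0.13). For both genes all Visomitin libraries lay below all controls. The same held for Dhcr7, which makes the last reduction to cholesterol (14.9 ± 1.45 and 12.04 ± 0.97 TPM, SD, n = 3, adjusted p = 0.18). It also held for Nsdhl, which removes a methyl group from the sterol, at 12.9 ± 0.96 and 10.6 ± 0.47 TPM (adjusted p = 0.20). Cyp51, lanosterol demethylase, overlapped through control 2, at 8.71, 5.46 and 8.96 TPM in control and 5.24, 6.30 and 4.72 TPM with Visomitin (-0.42, adjusted p = 0.23).

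Tm7sf2, a sterol reductase, had the opposite sign to Cyp51 (0.34, SE 0.13, adjusted p = 0.16). It was at 8.53, 7.46 and 8.68 TPM in control and 9.60, 12.2 and 10.3 TPM with Visomitin. All 3 Visomitin libraries exceeded all 3 controls, and 12.1% of the exon bases of Tm7sf2 are shared with Vps51, a neighbour on the same strand that reached 64.4 TPM. Fdft1, squalene synthase, had a log2 fold change of 0.11 (adjusted p = 0.62). Its value is uncertain because 18.3% of its exon bases lie opposite those of Ctsb, which reached 3786 TPM, and the sources used here do not say whether counting used strand. Ebp, a sterol isomerase, was the most abundant of the 11, with 63.0 ± 4.04 TPM in control libraries and 56.4 ± 4.85 TPM in Visomitin libraries (SD, n = 3). Msmo1, a sterol methyl oxidase, was at 20.9 ± 2.27 and 18.8 ± 0.86 TPM, and both genes overlapped between groups. The least abundant were Hsd17b7, at 2.64 ± 0.30 and 2.09 ± 0.47 TPM, and the desaturase gene Sc5d, at 3.62 ± 0.65 and 3.68 ± 0.42 TPM, whose small difference changed sign when control 2 or Visomitin 2 was left out.

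As a list, the 18 synthesis enzymes had a median log2 fold change of -0.20, beside -0.03 over all genes, and 13 of 18 lay below 0 (72.2%, beside 55.7% of all genes). Such a share was not particular to them. Of the 16 genes of other mevalonate branches described further on, 75% lay below 0. The share was 63.6% of 22 further genes of sterol homeostasis and 33.3% of 12 further genes of the LXR pathway. Non-overlapping ranges were seen for 8 of 18, 6 lower and 2 higher, where 18.4% of all genes were lower and 11.9% higher in that sense. Summed over the 18 genes the level was 288 to 299.7 TPM in control and 260.2 to 267 TPM with Visomitin. After median-ratio scaling, which centres all genes near 0, the median of the list was -0.17, and after quantile normalization it was -0.13. The number below 0 was 13 under both scalings.

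**Figure D2:**
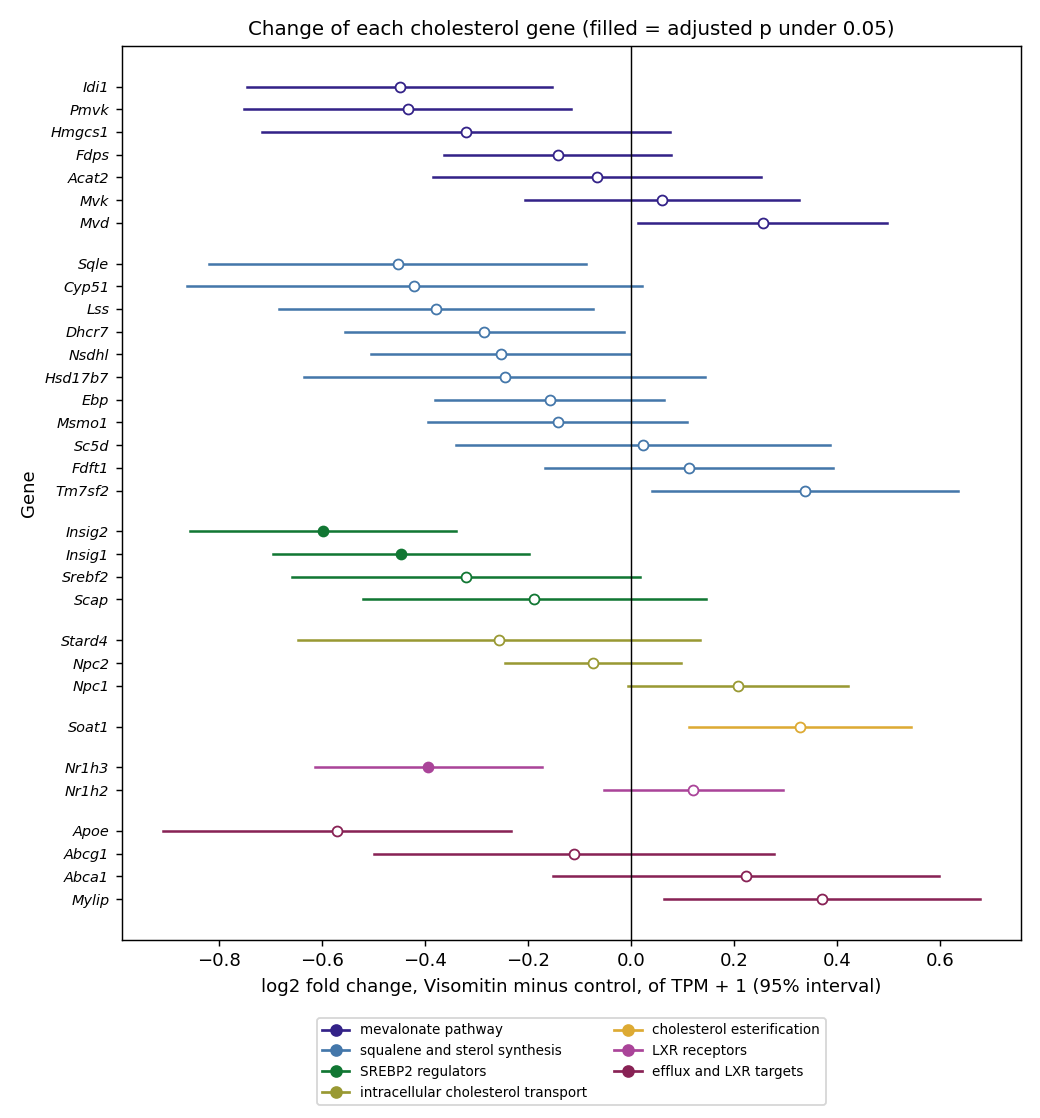
Log2 fold change of TPM + 1, Visomitin minus control, with its 95% interval from limma for each of the 32 genes, grouped and coloured by role, where filled points passed an adjusted p of 0.05. Only Insig2 (-0.60), Insig1 (-0.45) and Nr1h3 (-0.39) are filled, and the enzymes lie on both sides of 0.

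The regulators of SREBP2 held both calls on the synthesis side. These were 2 of 4 genes, where 5.03% of all genes tested were called lower. Insig2 was at 75.1, 64.8 and 59.4 TPM in control 1 to 3 and at 43.2, 47.3 and 39.9 TPM in Visomitin 1 to 3. It fell 1.51-fold (log2 fold change -0.60, SE 0.11, adjusted p = 0.019), and the highest Visomitin library lay well below the lowest control. Insig1, its paralog and itself a target gene of SREBP2, was at 16.3, 14.2 and 14.7 TPM in control and 10.1, 10.96 and 11.2 TPM with Visomitin. It fell 1.36-fold (-0.45, SE 0.11, adjusted p = 0.046), again with no overlap. Insig2 was the more abundant of the pair in all 6 libraries, at 4.40 ± 0.31 times Insig1 in control and 4.04 ± 0.43 times with Visomitin (SD, n = 3). The Insig1 call was close to the threshold and was lost whichever library was left out (adjusted p 0.063 to 0.15), or when the filter was dropped (0.084). The Insig2 call was lost without control 1 (0.074), without control 2 (0.052) and with no filter (0.062), while its log2 fold change stayed between -0.67 and -0.51.

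Srebf2, which encodes SREBP2, was at 51.1, 48.4 and 57.3 TPM in control and 32.9, 44.7 and 48.6 TPM with Visomitin. Visomitin 1 was the low library and Visomitin 3 reached into the control range, so the difference (-0.32, SE 0.15, adjusted p = 0.23) did not pass; without Visomitin 1 it was -0.16. Scap, the escort of SREBP2, was at 31.2 ± 4.34 and 27.3 ± 4.38 TPM (SD, n = 3, -0.19, adjusted p = 0.47), with overlapping groups. Visomitin 1 was also the lowest of all libraries for Scap (22.8 TPM), and this library stood apart from Visomitin 2 and 3 on the second principal component of the whole table, with 19.6% of the variance.

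**Figure D3:**
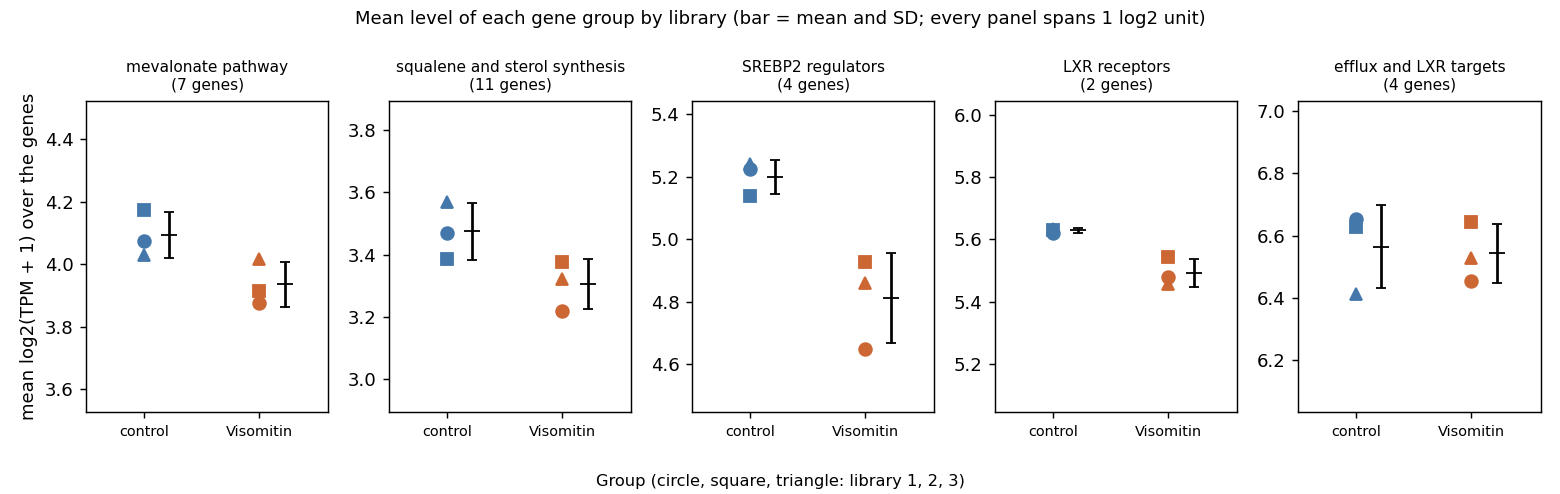
Mean log2(TPM + 1) over the genes of 5 groups in each library (blue control, orange Visomitin; circle, square and triangle for libraries 1 to 3), with the group mean and SD beside the points; every panel spans 1 log2 unit. The SREBP2 regulators lie at 5.14 to 5.24 in control and 4.65 to 4.93 with Visomitin, while the efflux genes overlap.

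None of the genes that move and store cholesterol passed. Npc1 and Npc2 encode the partner proteins that carry cholesterol out of the lysosome. Npc1 was at 83.4, 88.7 and 82.8 TPM in control and 89.2, 108 and 98.3 TPM with Visomitin (0.21, SE 0.09, adjusted p = 0.22), where the lowest Visomitin library barely exceeded the highest control. Npc2 was far more abundant, at 582 ± 28.0 and 553 ± 23.4 TPM (SD, n = 3, 95% interval -0.25 to 0.10), and its groups overlapped. Stard4, a sterol carrier of the cytosol and a target gene of SREBP2, was at 5.34 ± 0.77 and 4.33 ± 0.94 TPM (-0.26, adjusted p = 0.40). Soat1 encodes the acyltransferase that turns surplus cholesterol into stored esters in macrophages. It was at 72.8, 69.9 and 66.3 TPM in control and 80.1, 96.2 and 87.3 TPM with Visomitin, with every Visomitin library above every control (0.33, SE 0.09, adjusted p = 0.076). Soat1 passed after median-ratio scaling (0.37, adjusted p = 0.025), after quantile normalization (0.026), with array weights (0.0050) and without Visomitin 1 (0.032).

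On the LXR side 1 of the 2 receptor genes fell, where 5.03% of all genes tested fell. The difference between the receptor genes was not tested. Nr1h3, the LXRα gene, was at 25.3, 26.8 and 26.1 TPM in control and 19.9, 20.7 and 18.2 TPM with Visomitin. It fell 1.31-fold (-0.39, SE 0.10, adjusted p = 0.047), and the groups were far apart for their spread. Nr1h2, the LXRβ gene, was the more abundant receptor, at 91.0, 87.3 and 90.3 TPM in control and 93.9, 99.3 and 99.2 TPM with Visomitin, and did not pass (0.12, 95% interval -0.05 to 0.29, adjusted p = 0.37). Leaving out a library ended the Nr1h3 call for control 1 (0.12), for control 2 (0.14), for control 3 (0.13), for Visomitin 2 (0.11) and for Visomitin 3 (0.11), as did, among other fits, those with median-ratio scaling (0.064), with quantile normalization (0.074), without the trend (0.063) and with no filter (0.067). Its log2 fold change stayed between -0.43 and -0.34 under all 16 alternatives.

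None of the 4 LXR target genes passed. Apoe, the lipoprotein component that macrophages secrete, was by far the most abundant member, at 5872, 5229 and 7211 TPM in control and 4013, 3495 and 4816 TPM with Visomitin. Its ranges did not overlap and its log2 fold change of -0.57 was of the size of Insig2's, but the spread within groups was wider (SE 0.15, adjusted p = 0.055). Apoe passed in 5 of the 16 alternatives, among them leaving out Visomitin 3 (-0.69, adjusted p = 0.034). Abca1, the pump that loads cholesterol on to lipid-poor apolipoprotein, was at 35.1, 34.7 and 24.7 TPM in control and 32.7, 43.6 and 34.1 TPM with Visomitin (0.22, 95% interval -0.15 to 0.60, adjusted p = 0.45). Abcg1, which exports cholesterol to mature lipoprotein particles, was at 37.5, 41.2 and 27.4 TPM in control and 31.6, 38.1 and 27.8 TPM with Visomitin (-0.11, 95% interval -0.50 to 0.28, adjusted p = 0.74). For both transporters control 3 was the lowest control and the groups overlapped, and without control 2 the Abcg1 value was 0.0062. Mylip, whose ubiquitin ligase removes lipoprotein receptors, was at 11.6, 11.1 and 9.02 TPM in control and 12.5, 15.4 and 14.0 TPM with Visomitin. All 3 Visomitin libraries lay above all 3 controls, without passing the test (0.37, SE 0.13, adjusted p = 0.14).

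Set side by side, the 18 synthesis enzymes had 0 higher and 0 lower calls and a median of -0.20. The 8 regulator and transport genes had 0 and 2 calls and a median of -0.22. The 6 genes of the LXR side had 0 and 1 calls and a median of 0.0049. Over all genes tested 2.08% were called higher and 5.03% lower, and the median was -0.03. Within each library, the mean log2(TPM + 1) of the synthesis enzymes minus that of the 4 efflux and LXR target genes was -2.95 to -2.66 in control and -3.06 to -2.94 with Visomitin. The groups overlapped in this difference, control 1 lying below Visomitin 3. Median and direction of the LXR side depended on the library left out, with a median of -0.11 without control 3, -0.07 without Visomitin 2 and 0.05 without control 2.

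**Figure D4:**
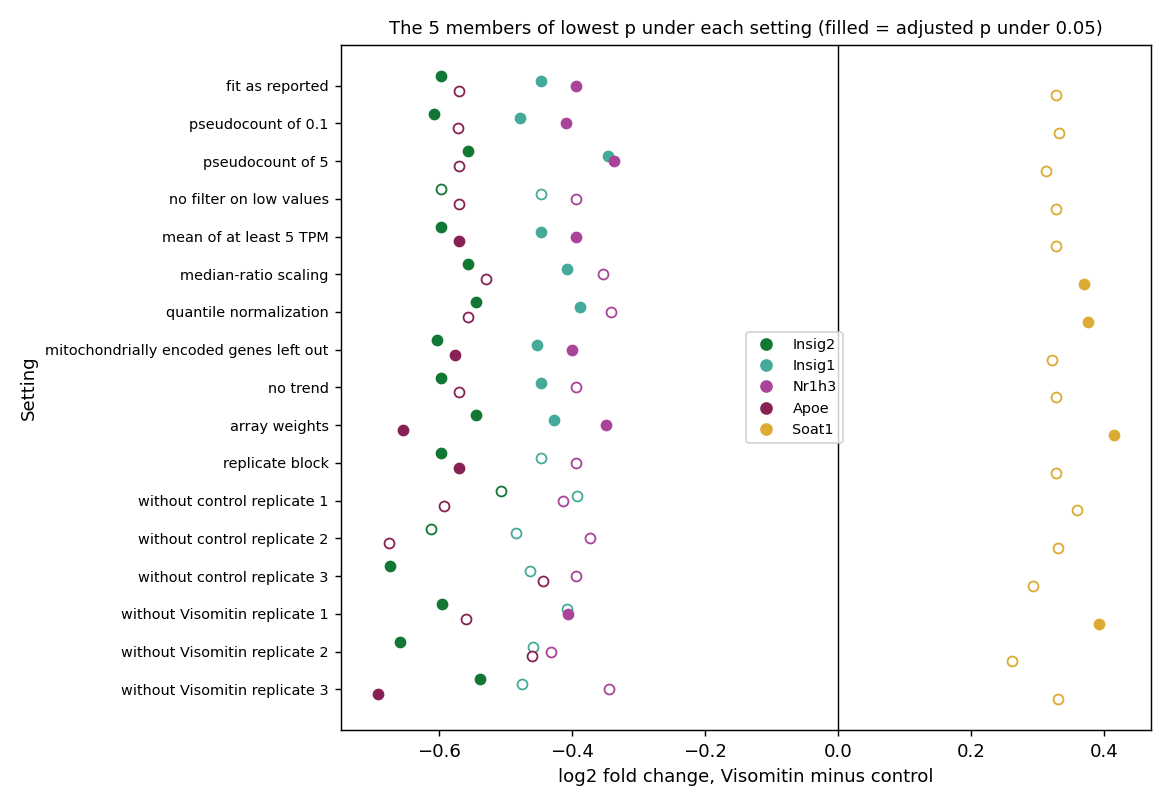
Log2 fold change of the 5 members with the lowest p-values under the fit as reported and 16 alternatives, where filled points passed an adjusted p of 0.05. All values keep their side of 0, and Insig2 is filled in 13 of the 16 alternatives. The open points for Insig1 gather where a library was left out. Those for Nr1h3 also lie at settings that keep every library, such as median-ratio scaling and quantile normalization.

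Further genes of sterol homeostasis, 22 in number, had 1 that rose, 0 that fell and a median log2 fold change of -0.03. Among all genes tested 2.08% rose and 5.03% fell, and the median was also -0.03. Gramd1b, which encodes a protein that carries cholesterol from the plasma membrane to the endoplasmic reticulum, was at 18.6, 18.8 and 16.7 TPM in control and 23.8, 31.1 and 27.3 TPM with Visomitin. It rose 1.49-fold (0.57, SE 0.12, adjusted p = 0.028) with no overlap. The call held without Visomitin 1 (0.017). Leaving out any other single library ended it, with an adjusted p of 0.059 (Visomitin 3) to 0.11 (Visomitin 2), as did testing with no filter (0.074). Its relative Gramd1a (0.30, adjusted p = 0.15) and the sterol carrier gene Stard5 (0.29, adjusted p = 0.14) did not pass, although neither overlapped between groups. These 3 genes lay above 0, but 14 of the 22 lay below (63.6%, beside 55.7% of all genes). Ranges did not overlap for 4 higher and 1 lower of the 22, beside 11.9% and 18.4% of all genes.

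Further genes of the LXR pathway, 12 tested of 13, had 1 that rose, 0 that fell and a median of 0.12. The shares of all genes that rose and fell were 2.08% and 5.03%, with a median of -0.03. Pltp, the phospholipid transfer protein gene and a target of LXR, was at 604, 583 and 532 TPM in control and 849, 942 and 905 TPM with Visomitin. It rose 1.57-fold (0.65, SE 0.08, adjusted p = 0.0031), and it passed under all 16 alternatives, which none of the 32 members did. The enzymes that make oxysterols, the ligands of LXR, did not pass and had opposite signs. Ch25h was at 4.12, 2.73 and 6.78 TPM in control and 1.03, 1.36 and 2.30 TPM with Visomitin (-1.08, SE 0.29, adjusted p = 0.062). Cyp27a1 was at 9.64, 9.21 and 5.22 TPM in control and 12.4, 14.8 and 12.3 TPM with Visomitin (0.69, SE 0.21, adjusted p = 0.088). Neither overlapped between groups, and Ch25h passed without control 2 (0.034) or Visomitin 3 (0.046).

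**Figure D5:**
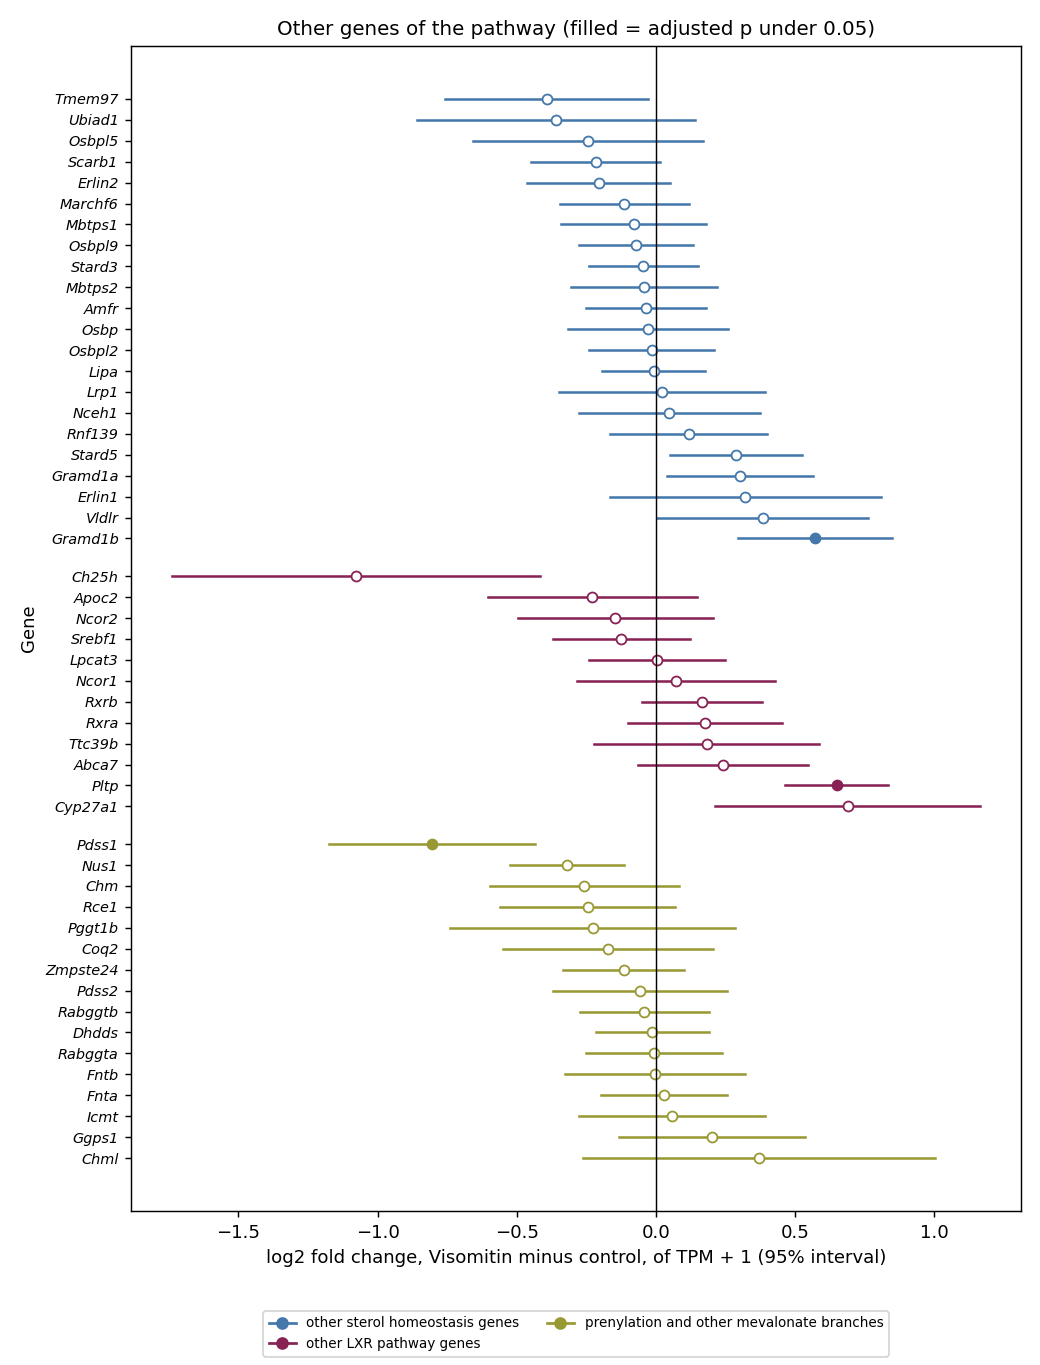
Log2 fold change of TPM + 1, Visomitin minus control, with 95% intervals for the tested genes of 3 further lists, where filled points passed an adjusted p of 0.05. Gramd1b (0.57), Pltp (0.65) and Pdss1 (-0.81) are filled, and most other intervals include 0.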

How the data were processed

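Libraries were stranded, mRNA-selected and sequenced on Illumina instruments after TRIzol extraction and DNase I digestion, per the labels' protocols. Read processing used fastp, HISAT2 and StringTie, per the submitters' processing notes; the sources used here do not give versions, genome build, annotation or the use of strand in counting. The deposited values are TPM per gene, computed by the authors within each library and used as deposited. Symbols came from a reference table (51884 of 57180 identifiers). The filter asked for 1 TPM or more in 3 or more libraries, and the genes that met it were tested, as log2(TPM + 1), with limma 3.58.1 in R 4.3.3 (lmFit, eBayes with trend, group only, two-sided, Benjamini-Hochberg at 0.05). The fit was tested on simulated data. TPM keep no depth, so 3 libraries a group limit the precision. All 32 members were named, with the 3 lowest p-values of each further list. The members and lists were chosen with earlier results of these data known. Exon overlaps and shared 31-base words came from GENCODE M21. The 16 alternatives changed pseudocount, filter, scaling, variance model or libraries. Other genes of synthesis and uptake and a lymphoid marker list are not reported here.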

Additional observations from a re-analysis of the deposited data

How the results depend on the processing

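With TPM and 3 libraries a group, the number of libraries limits precision, and depth is unknown. The whole-table counts of 244 higher and 591 lower genes became 1263 and 1572 with array weights, 73 and 308 with no filter on low values, and 482 and 559 higher genes with median-ratio scaling and quantile normalization; with 1 library left out they were 54 to 411 and 232 to 577. Synthesis enzymes, 0 higher and 0 lower as reported, had 1 higher and 4 lower with array weights and 1 lower without the trend, and 0 and 0 with any library left out. Regulator and transport genes, 0 higher and 2 lower, had 2 higher with array weights, 1 higher with either scaling, 0 lower with no filter, and 0 to 1 higher and 0 to 1 lower with a library left out. LXR-side genes, 0 higher and 1 lower, had 1 higher and 2 lower with array weights, 2 lower with a mean of at least 5 TPM or without mitochondrially encoded genes, 0 lower with either scaling, no filter or no trend, and 0 higher and 0 to 1 lower with a library left out. Signs changed for 5 members near 0: Scap was 0.016 with array weights, and with a library left out Sc5d was -0.075 (without control 2) to 0.13, Abcg1 -0.28 to 0.0062 (without control 2), Acat2 -0.17 to 0.023 (without control 3) and Mvk -0.016 (without control 3) to 0.14. Leaving out a library lowers the residual degrees of freedom; the cause of the other changes was not tested.

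The labels state no pairing. Residual correlations of same-numbered libraries were 0.05, 0.02 and 0.17. A replicate block (the library number as a second term) gave the following: 308 genes were higher and 799 lower, 1 regulator gene was lower (Insig2) and 1 LXR-side gene was lower, which was Apoe (adjusted p = 0.0057) and not Nr1h3 (0.059); Insig1 had 0.066, and Ch25h (0.015) and Cyp27a1 (0.041) passed.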

Other observations

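The mevalonate pathway also feeds protein prenylation, ubiquinone and dolichol. Of 16 genes of these branches 0 rose and 1 fell (6.25%, beside 5.03% of all genes). Their median log2 fold change was -0.05, beside -0.03 over all genes. Pdss1, a subunit of the synthase that builds the isoprenoid tail of ubiquinone, was at 4.41, 5.47 and 5.62 TPM in control and 2.79, 2 and 2.82 TPM with Visomitin. It fell 1.75-fold (-0.81, SE 0.16, limma adjusted p = 0.024), and all Visomitin libraries lay below all controls. It missed the threshold with control 1 (0.051), with control 2 (0.073), with control 3 (0.089) and with Visomitin 2 (0.089) left out. Testing with no filter on low values also ended the call (0.096). Pdss2, the other subunit, was at 5.97 ± 0.39 and 5.73 ± 0.76 TPM (SD, n = 3, adjusted p = 0.84). Nus1, a subunit of the dolichol-making transferase, had -0.32 (adjusted p = 0.072) and Rce1, a protease of prenylated proteins, -0.25 (adjusted p = 0.32). The prenyltransferase genes Fnta, Fntb, Pggt1b, Rabggta and Rabggtb, named after their values were seen, had log2 fold changes of 0.03, -0.0049, -0.23, -0.0075 and -0.04, and none passed.

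Ratios within a library do not depend on scaling between libraries. The pairs below were chosen after their values were seen and are given without a test. Mvd stood at 4.27, 4.29 and 3.85 times Idi1 in control and at 7.54, 6.96 and 7.48 times with Visomitin. Tm7sf2 stood at 0.98, 1.37 and 0.97 times Cyp51 in control and 1.83, 1.93 and 2.18 times with Visomitin. Nr1h2 stood at 3.60, 3.26 and 3.47 times Nr1h3 in control and 4.71, 4.80 and 5.45 times with Visomitin. Abca1 stood at 0.94, 0.84 and 0.90 times Abcg1 in control and 1.03, 1.14 and 1.23 times with Visomitin. In each of these pairs the control and Visomitin ranges did not overlap, which the choice of pairs favoured. For Mvd with Idi1 and Nr1h2 with Nr1h3 it was bound to occur, since each gene alone separated the groups, in opposite directions. Neither Abca1 nor Abcg1 separated the groups alone. The ratio of Tm7sf2 also carries the exon bases that this gene shares with Vps51. The ratio of Insig2 to Insig1 did overlap, at 4.04 to 4.60 in control and 3.54 to 4.31 with Visomitin.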
